A study of Mus musculus with 4 samples.

Results

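10 genes of the liver X receptor (LXR) pathway and of lipid handling are described here: the receptor genes Nr1h2 and Nr1h3, the efflux genes Abca1, Abcg1 and Apoe, and Lpl, Plin2, Srebf1, Lpcat3 and Mylip. Their Entrez identifiers in the table are 22260 for Nr1h2, 22259 for Nr1h3, 11303 for Abca1, 11307 for Abcg1, 11816 for Apoe, 16956 for Lpl, 11520 for Plin2, 20787 for Srebf1, 14792 for Lpcat3 and 218203 for Mylip. They were taken by symbol from a table of 14435 genes, all 10 were found, and all 10 passed the filter on low counts. RNA came from the mouse macrophage cell line RAW264.7, grown in alpha-minimum essential medium with serum and given LPS from E. coli for 12 hours. 2 libraries came from cells transfected with a nonspecific shRNA (control) and 2 from cells transfected with an shRNA against Mettl3 (knockdown), whose product is the methyltransferase that places N6-methyladenosine (m6A) on mRNA. Both groups had LPS, no library without LPS was analysed here, and differences between the transfected cell populations cannot be told apart from loss of Mettl3. 1 field of the second knockdown library names METTL4, whereas its title names Mettl3. The labels do not say whether the libraries within a group are from separate cultures, or whether the transfected cells were pooled or cloned, so p-values measure the spread between these libraries, which may be technical.

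LXR alpha (Nr1h3) and LXR beta (Nr1h2) are nuclear receptors that bind oxysterols and pair with a retinoid X receptor (RXR) on DNA. In macrophages loaded with cholesterol they raise genes that move cholesterol out of the cell, load it onto apolipoprotein E, remodel membrane phospholipids, make fatty acids and limit the uptake of lipoproteins. LPS signalling and LXR signalling are known to oppose each other in macrophages.

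The estimated counts of a library summed to between 16342313 and 17193639, and the 10 most abundant genes held 7.46% to 8.12% of them. Levels are given as CPM, counts scaled to library size, and between genes as TPM, which is also scaled to transcript length. Mettl3 had 30.9 and 29.9 CPM in the controls and 11.5 and 11.2 CPM after knockdown. On the log2 scale Mettl3 fell by 1.42 (SE 0.10), with an adjusted p of 1.58e-06 from edgeR. Mettl4 had 26.4 and 24.3 CPM against 24.4 and 24.8 CPM. Of 7 adipocyte, 7 hepatocyte, 6 fibroblast, 6 lymphocyte and 5 dendritic cell markers looked for, only 1 (a dendritic cell marker) passed the filter, and the markers of each of these lists that had a row summed to at most 3.03 CPM in any library. Markers without a row were not analysed here. All 10 macrophage markers were present. Their summed level was 14776 and 14999 CPM in the controls and 9314 and 9256 CPM in the knockdown libraries, and 7 of the 10 fell. In bulk RNA of a cell line, a lower level in each cell and a lower level in some of the cells cannot be told apart. This lower level of macrophage markers accompanies each fall described below, and its part in them was not tested.

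Across all genes the libraries differed widely: 43.7% of the 11035 tested genes were called, 21.4% as rises and 22.3% as falls. The calls in each list below stand beside these shares. With other scalings the share of called genes that rose moved from 48.9% to 64.1% (library size alone), 63.1% (FPKM) and 70.0% (TPM). A call means a Benjamini-Hochberg adjusted p under 0.05 from the quasi-likelihood F-test of edgeR. Among the 10 genes, 2 rose (Apoe and Mylip), 4 fell (Lpl, Abca1, Plin2 and Abcg1) and 4 were not called (Nr1h2, Nr1h3, Srebf1 and Lpcat3). The share called was 60%, with 20% rising and 40% falling. CPM of the groups did not overlap for 9 of the 10 genes, against 73.4% of all tested genes. The median log2 fold change of the 10 genes was -0.19, beside 0.01 for all tested genes. These genes moved in both directions, with the largest falls in the lipase Lpl and the cholesterol exporter Abca1.

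**Figure D1:**
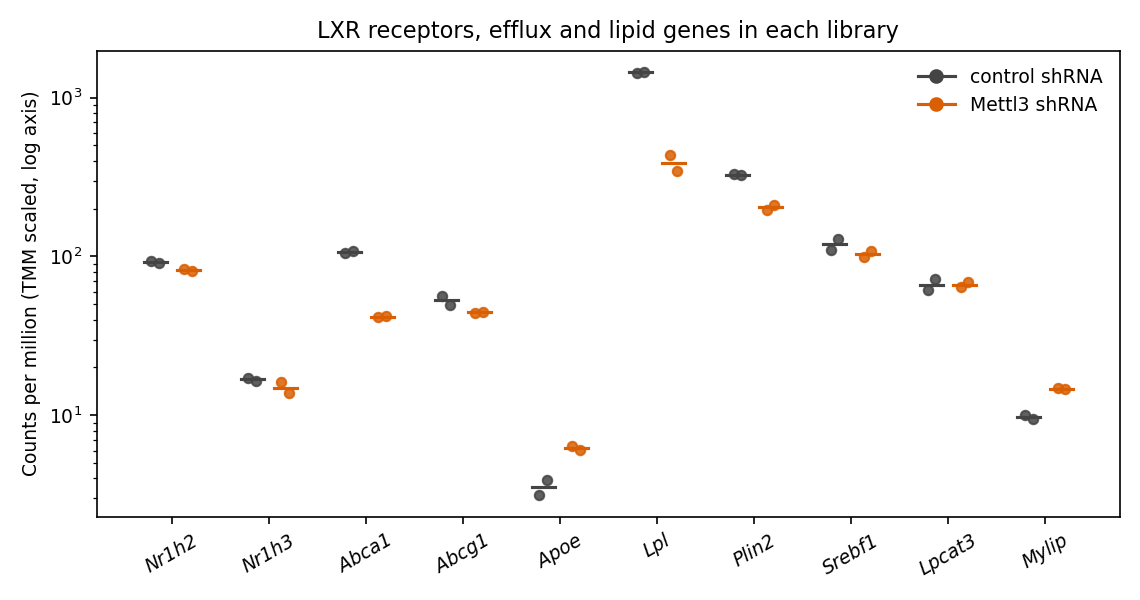
Level of each gene in each library as TMM-scaled CPM on a log axis. Dots are the 4 libraries and short lines the group means. Abca1, Lpl and Plin2 sit lower in both Mettl3 shRNA libraries and Apoe and Mylip higher, while the groups of Lpcat3 overlap.

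The receptors differed little between the groups. Nr1h2 had 93.3 and 91.5 CPM in the controls and 83.1 and 80.9 CPM in the knockdown libraries. The knockdown libraries were slightly lower without overlap, but Nr1h2 was not called (log2 fold change -0.17, SE 0.07, adjusted p = 0.0610 by edgeR). Its 95% interval ran from -20.1% to -1.52%. The call appeared without control replicate 2 (adjusted p = 0.0373) and with no filter on low counts (adjusted p = 0.0492 by edgeR). Nr1h3 had 17.2 and 16.5 CPM against 16.2 and 13.7 CPM, a log2 fold change of -0.17 (SE 0.12, adjusted p = 0.261 by edgeR) with a 95% interval from -25.7% to 6.17%. Per length, LXR beta mRNA was the more abundant of the pair: the TPM of Nr1h2 was 4.80 and 4.93 times that of Nr1h3 in the controls, and after knockdown 4.52 and 5.14 times, so the ratio overlapped between groups.

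The partner of the receptors did differ. Rxra, which encodes RXR alpha, had 22.1 and 27.4 CPM in the controls and 7.62 and 6.78 CPM after knockdown. It fell by 1.78 on the log2 scale (SE 0.14, adjusted p = 3.56e-06 by edgeR). Rxrb, which encodes RXR beta, had 26.1 and 26.7 CPM against 27.4 and 26.1 CPM and was not called. Ncor1, a nuclear receptor corepressor, was not called (log2 fold change 0.03). Over 16 tested partners and cofactors, 3 fell (Rxra and Gps2 among them), 1 rose (Crebbp, an acetyltransferase, 0.37) and the median log2 fold change was 0.03. Gps2, a subunit of the corepressor complex (-0.29), lost its call without knockdown replicate 1 and without knockdown replicate 2, and the number that rose was 4 without control replicate 1. With TPM 4 rose and 2 fell.

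Abca1, the exporter that passes cellular cholesterol to lipid-poor apolipoprotein A-I, had 105 and 109 CPM in the controls and 41.5 and 41.9 CPM in the knockdown libraries. Both knockdown libraries lay far below both controls and the libraries of each group were close together. Abca1 fell by 1.36 on the log2 scale (SE 0.07, adjusted p = 1.78e-07 by edgeR), or by 60.9% with a 95% interval from -65.0% to -56.4%. 633 of the tested genes (5.74%) had a change at least as large in either direction. Abcg1, the exporter that works with high-density lipoprotein, had 56.1 and 49.7 CPM in the controls and 43.8 and 44.9 CPM in the knockdown libraries. The groups were separate in CPM, though the lower control was close to the knockdown libraries. Abcg1 fell by 0.25 on the log2 scale (SE 0.08, adjusted p = 0.0282 by edgeR), but the call was lost in 8 of 15 alternative analyses. These were DESeq2 (adjusted p = 0.107), library size as the scaling (-0.16), FPKM (-0.14), TPM (-0.10 with either pseudocount) and the fits without control replicate 1 (-0.18, adjusted p = 0.0868), without knockdown replicate 1 (adjusted p = 0.164) and without knockdown replicate 2 (adjusted p = 0.0990). In TPM the groups overlapped, with 15.2 and 13.0 in the controls against 12.95 and 13.2 after knockdown. The 2 exporters were present at like levels per length in the controls, where the TPM of Abca1 was 1.05 and 1.23 times that of Abcg1. In the knockdown libraries the ratio was 0.531 and 0.522.

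None of 5 other tested transporters of the ABCA and ABCG families fell by as much as Abca1. Among them, Abca3, a phospholipid transporter, fell by 0.29 on the log2 scale. Abca3 lost its call with FPKM, with TPM and without knockdown replicate 1. Abcg2 (0.40) and Abcg4 (2.13) rose, and Abca7, the nearest relative of Abca1, had 37.7 and 38.1 CPM against 39.2 and 41.7 CPM. Abcg4 was at 0.241 CPM in the controls and 1.08 CPM in the knockdown libraries. The call on Abcg2 was kept in 7 of 15 alternative analyses. It was lost in each of the 4 fits without 1 library, and also with DESeq2, limma-voom and no filter on low counts.

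The sequence just upstream of Abca1 is shown because it holds a repeat that resembles, with mismatches, the kind to which LXR and RXR bind, and because a repeat with the same half-sites lies upstream of Srebf1, whose mRNA was not called. The classical form is a direct repeat of the half-site AGGTCA around a spacer NNNN of any 4 bases, known as DR4. It was searched on both strands of the RefSeq promoter windows on GRCm38.p6, from 250 bases before to 50 bases after each start, with up to 3 mismatches outside the spacer. 8 of the 10 genes had an entry, with 13 windows between them, and Abcg1 and Lpl had none. With at most 2 mismatches no window of the 8 genes matched, as against 3.02% of all 32851 windows. With 3 mismatches 2 windows matched, 1 of Abca1 and 1 of the 3 of Srebf1, as against 21.9% of all windows. A match at this level is common, which does not tell whether LXR binds these 2 repeats. The 250 bases before the start follow, read 5′ to 3′ along the gene, with the repeat in capitals. The Abca1 window is chr4:53159896-53160145 and the Srebf1 window chr11:60210472-60210721, both on the minus strand of GRCm38.p6.
Abca1: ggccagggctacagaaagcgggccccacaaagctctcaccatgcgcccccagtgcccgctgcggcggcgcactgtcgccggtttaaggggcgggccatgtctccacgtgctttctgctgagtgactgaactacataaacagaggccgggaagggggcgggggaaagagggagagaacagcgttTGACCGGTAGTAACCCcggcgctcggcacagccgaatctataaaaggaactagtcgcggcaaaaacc
Srebf1: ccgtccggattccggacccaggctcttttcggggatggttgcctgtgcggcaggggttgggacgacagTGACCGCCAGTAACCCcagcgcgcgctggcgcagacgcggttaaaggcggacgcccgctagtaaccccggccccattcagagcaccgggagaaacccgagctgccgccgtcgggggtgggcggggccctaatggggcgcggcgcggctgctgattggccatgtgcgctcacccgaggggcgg

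In Abca1 the repeat ran from 67 to 52 bases before the start, and in Srebf1 from 182 to 167 bases before it. Both lay on the strand opposite to the gene. The following lines read them along that strand, with capitals for the bases that equal the DR4 repeat.
Abca1 repeat: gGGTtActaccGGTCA
Srebf1 repeat: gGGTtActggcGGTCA
Counted from 1 at the 5′ end, both carried the same 3 differences from the repeat (A1G, C5T and A11C). They were identical at all 12 bases of the half-sites and at 14 of the 16 bases including the spacer. A match is a description of letters, and binding was not measured in these samples. The log2 fold changes of the 2 genes were -1.36 for Abca1 and -0.20 (not called) for Srebf1, and the difference between them was not tested.

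Apoe encodes apolipoprotein E, the acceptor that macrophages secrete themselves. It had 3.13 and 3.92 CPM in the controls and 6.43 and 6.03 CPM in the knockdown libraries, from 52 and 65 counts against 108 and 105. Both knockdown libraries were higher. Apoe rose by 0.82 on the log2 scale (SE 0.19, adjusted p = 0.00459 by edgeR), with a 95% interval from 32.7% to 135% above the control. At this depth counting alone gives an SD of 11.0% per library, and in the controls Apoe had the lowest mean TPM of the 10 genes (4.42 and 5.36). The exporter Abca1 fell and the acceptor Apoe rose in the same libraries.

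**Figure D2:**
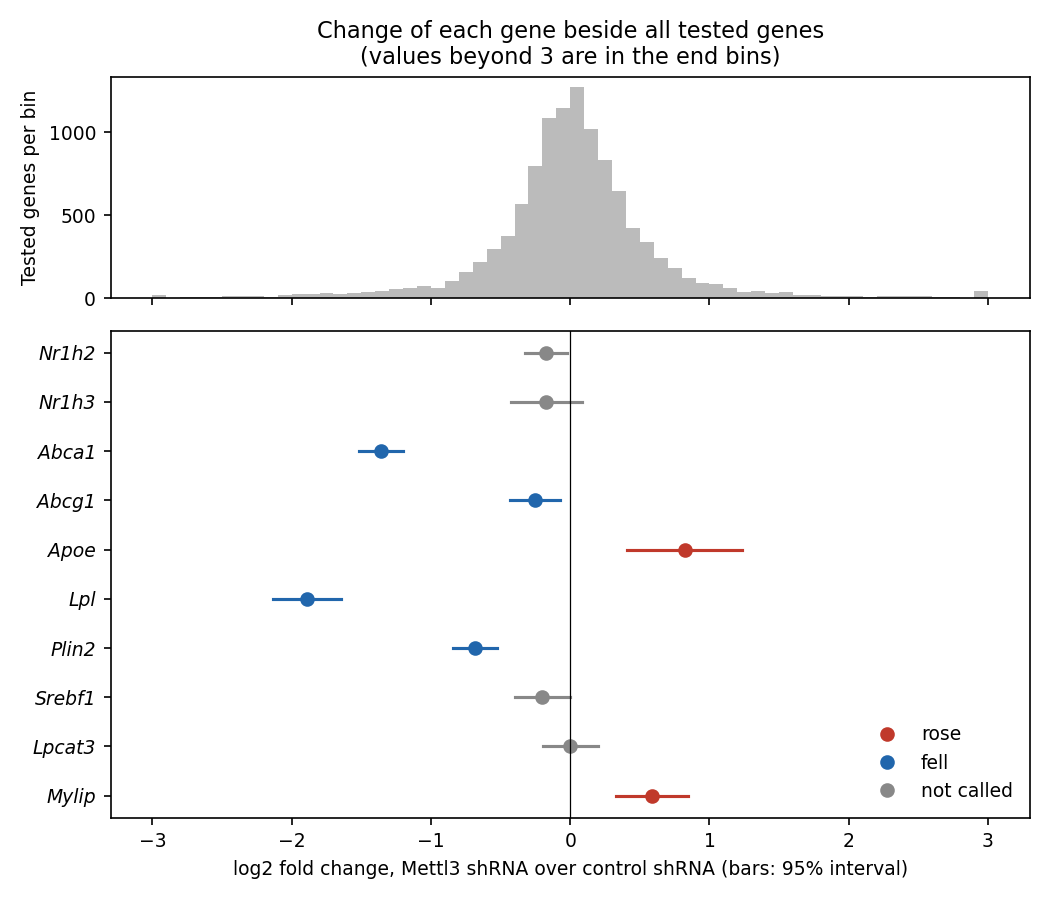
Upper panel, the number of tested genes in bins of log2 fold change (Mettl3 shRNA over control shRNA). Lower panel, the log2 fold change of each gene with its 95% interval, coloured by its call. Lpl (-1.89) and Abca1 (-1.36) lie in the left tail of all genes, while both receptor genes and Lpcat3 lie in the central peak.

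Lpl, the lipoprotein lipase that frees fatty acids from triglyceride-rich lipoproteins, changed most of the 10 genes. It had 1429 and 1453 CPM in the controls and 433 and 344 CPM in the knockdown libraries. The controls were close together, the knockdown libraries less so, and the groups were far apart. Lpl fell by 1.89 on the log2 scale (SE 0.11, adjusted p = 3.60e-06 by edgeR), or by 73.1%. It was -2.07 without knockdown replicate 1 and -1.74 without knockdown replicate 2. 316 of the tested genes (2.86%) changed at least as much in either direction. Lpl ranked 257 of 14435 genes by TPM in the controls.

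Of 10 tested partners and regulators of the lipase 5 fell and 1 rose. 3 fell and 1 rose with DESeq2, 3 fell and 3 rose with library size alone, and 3 fell and 2 rose with FPKM or TPM. Sdc1, the heparan sulfate proteoglycan syndecan, fell from 89.5 to 25.5 CPM (-1.81, SE 0.08) and Furin, a protease that can cleave the lipase, from 240 to 119 CPM (-1.02). Sort1, a sorting receptor (-1.29), Angptl4, an inhibitor of the lipase (-0.90), and Lmf1, a factor for its folding (-0.24), made up the 5. Angptl4 and Lmf1 lost their calls with DESeq2, library size alone, FPKM and TPM. Sel1l, which acts with Lmf1 in the folding of the lipase in the endoplasmic reticulum, rose from 147 to 229 CPM (0.64). Without knockdown replicate 1, and likewise without knockdown replicate 2, 3 genes fell, because Angptl4 and Lmf1 were no longer called, and 2 rose in the 3 fits without control replicate 1, control replicate 2 or knockdown replicate 2. Genes beyond the 3 largest changes of a list in each direction, such as Angptl4 and Lmf1, were chosen after their values were seen.

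Plin2 encodes perilipin 2, which coats lipid droplets and is a target of the PPAR receptors. It had 331 and 325 CPM in the controls and 197 and 211 CPM in the knockdown libraries. The groups were far apart relative to their spread, and Plin2 fell by 0.69 on the log2 scale (SE 0.07, adjusted p = 2.80e-05 by edgeR), or by 37.8%. The other tested genes of lipid droplets and neutral lipid turnover moved in both directions. 5 of 16 fell, 3 rose, and the median log2 fold change was 0.08. Bscl2, which encodes seipin, a protein of droplet formation, fell from 91.8 to 20.2 CPM (-2.18, SE 0.08), and its counts were partly not whole, as when reads are divided between genes. Acsl1, which activates fatty acids (-1.03), and Abhd5, the coactivator of the triglyceride lipase ATGL (-0.59), fell too, as did Acsl5 (-0.30) and Hilpda, an inhibitor of that lipase (-0.26). Acsl3 (0.46), Fitm2 (0.49) and Soat2 (0.80) rose. The related coat gene Plin3 was not called (0.14), nor was Soat1, the main enzyme of cholesterol ester formation in macrophages (0.09). Acsl5 and Hilpda lost their calls without knockdown replicate 1 and without knockdown replicate 2, which left 3 that fell in each of those fits. Hilpda lost it without control replicate 2 as well, Soat2 without knockdown replicate 1 and Fitm2 without knockdown replicate 2. Without control replicate 1, 5 genes rose, and with TPM 6 rose and 3 fell.

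Plin2 and Lpl are also known targets of PPAR receptors, and in the PPAR list 5 of 9 tested genes fell by edgeR, and 4 by DESeq2 and by limma-voom. Each of these tools called 0 rises, and 0 genes were higher at an unadjusted p under 0.05 in edgeR. The median log2 fold change of the PPAR list was -0.64. Of all tested genes 22.3% fell and 21.4% rose. Fabp5, a fatty acid binding protein, fell from 144 to 66.1 CPM (-1.13), and Ppargc1b (-0.64) and Angptl4 (-0.90) fell too. Angptl4 lost its call with DESeq2, limma-voom, edgeR without robust fitting, library size alone, FPKM and TPM. Ppargc1b lost its call with FPKM and TPM. Ppard, which encodes PPAR delta, had 38.9 and 62.1 CPM in the controls and 16.4 and 15.7 CPM in the knockdown libraries (-1.65, SE 0.29, adjusted p = 0.0221 by edgeR). The controls differed in Ppard, and Ppard was no longer called when knockdown replicate 1 (adjusted p = 0.212) or knockdown replicate 2 (adjusted p = 0.242) was left out, or with no filter on low counts. 3 genes fell in each of the fits without a knockdown library. Pparg, which encodes PPAR gamma, was below the filter. The scavenger receptor gene Cd36 was not called (-0.02).

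Srebf1 encodes SREBP1, the transcription factor of fatty acid synthesis, and its 1c form is an LXR target. It had 109 and 130 CPM in the controls and 99.5 and 108 CPM in the knockdown libraries. The higher knockdown library lay just below the lower control. Srebf1 was not called (log2 fold change -0.20, SE 0.09, adjusted p = 0.0939 by edgeR), with a 95% interval from -24.2% to -0.119%. It was -0.33 without control replicate 1 (adjusted p = 0.00122 by edgeR), which leaves the higher control alone. The table has 1 count per gene, so the transcripts from the 3 annotated starts are not told apart, and 109 bases of an exon of Rai1 on the opposite strand overlap an exon of Srebf1 in GENCODE M21. Rai1 fell (-0.53).

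In the list of other LXR targets Scd1, a stearoyl-CoA desaturase, fell from 45.4 to 20.8 CPM (-1.13, SE 0.16), and Scd2 (-0.61), Fads1 (-0.34) and Fasn, the fatty acid synthase (-0.33), fell too, these 3 losing their calls without knockdown replicate 1. Fads1 and Fasn also lost theirs with FPKM and TPM, and Scd2 with library size alone and with no filter on low counts. Acaca (-0.18) and Elovl5 (-0.14) were not called. Among further LXR targets Pltp, the phospholipid transfer protein, fell from 137 to 36.2 CPM (-1.92, SE 0.07), with some counts not whole, Tgm2 from 317 to 148 CPM, Smpdl3a, a phosphodiesterase, from 55.2 to 27.3 CPM and Scarb1, the HDL receptor SR-BI, from 87.5 to 64.4 CPM. In all, 8 of 11 tested genes of the list of other LXR targets fell, and 5 without knockdown replicate 1. The median log2 fold change of the list was -0.44. Of all tested genes 22.3% fell and 21.4% rose. Arl4c, a small GTPase linked to cholesterol export, was the 1 that rose, from 0.361 and 0.542 CPM to 2.26 and 2.76 CPM. 8 of the 19 listed genes with a row, among them Mertk, Cd5l and Abcg5, were below the filter.

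**Figure D3:**
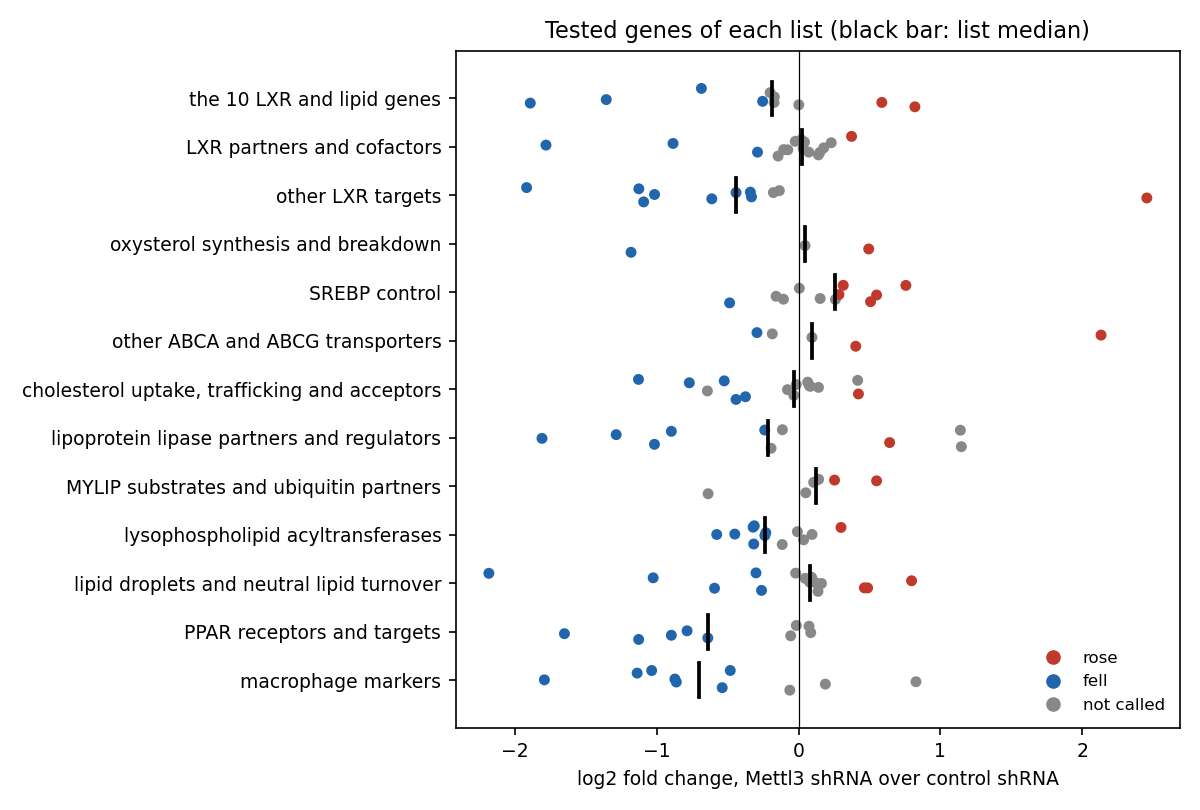
Log2 fold change (Mettl3 shRNA over control shRNA) of every tested gene of each list, coloured by its call, with the list median as a black bar. The medians of other LXR targets (-0.44), PPAR receptors and targets (-0.64) and macrophage markers (-0.70) lie left of 0 and that of SREBP control (0.26) lies right of it.

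Lpcat3, the LXR target that places polyunsaturated fatty acids on membrane phospholipids, did not separate the groups. It had 61.1 and 71.8 CPM in the controls and 64.1 and 68.9 CPM in the knockdown libraries, which lay between them. Lpcat3 had a log2 fold change of 0.00 (SE 0.09, adjusted p = 0.990 by edgeR), and its 95% interval ran from -12.5% to 14.6%. Its sign turned in 5 of the alternatives, none of which called it. Its counts were not whole, and 38 bases of an exon of Emg1 on the opposite strand overlap one of its exons, so part of its count may be shared. The other lysophospholipid acyltransferases had more falls, with 7 of 12 tested genes lower and 1 higher and a median log2 fold change of -0.23. Of all tested genes 22.3% fell and 21.4% rose. Of the called genes Mboat1 fell most, from 12.2 to 8.20 CPM (-0.58), and its call was kept in 6 of 15 alternative analyses. Agpat3 fell from 123 to 90.1 CPM (-0.45), and Lpcat1 (-0.32) and Lpcat2 (-0.23) fell. Of the 7 genes that fell, only Agpat3 kept its call with each library left out. Lpgat1 (0.30) was the gene that rose, and its call was lost without either knockdown library. With TPM 1 of the 12 fell and 2 rose.

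Mylip encodes the ubiquitin ligase IDOL, which LXR induces and which sends lipoprotein receptors to degradation. It had 10.1 and 9.46 CPM in the controls and 14.9 and 14.5 CPM in the knockdown libraries. Both knockdown libraries were higher and the libraries of each group lay close together. Mylip rose by 0.59 on the log2 scale (SE 0.12, adjusted p = 0.00213 by edgeR), or by 50.2%, with a 95% interval from 25.5% to 79.9%. Lrp8, which encodes a substrate, had a log2 fold change of -0.64 that was not called, and Vldlr, which encodes another, was not analysed here. Among 6 tested substrates and ubiquitin partners 2 rose (the conjugating enzyme gene Ube2d3, 0.25, among them) and 0 fell by edgeR, with 0 lower at an unadjusted p under 0.05. DESeq2 called 0 falls and limma-voom 1. Ube2d3 lost its call without control replicate 2, without knockdown replicate 1 and without knockdown replicate 2, and 1 fell without control replicate 1.

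SREBP2 is the transcription factor of cholesterol synthesis and uptake, and oxysterols hold it back. 5 of 11 tested genes of the SREBP list rose and 1 fell, with a median log2 fold change of 0.26. Insig1, the retention protein of the SREBP complex, rose from 75.6 to 128 CPM (0.76), and Idi1 (0.51), Hmgcs1 (0.32) and Sqle (0.29), enzymes of cholesterol synthesis, rose too. Srebf2 itself fell from 302 to 216 CPM (-0.49). Hmgcs1 and Sqle lost their calls without knockdown replicate 2, which left 3 that rose, Sqle also without control replicate 1, and 2 fell without either control library. In the formation and breakdown of oxysterols 3 genes were tested. Hsd3b7 fell from 15.7 to 6.90 CPM (-1.18), Cyp27a1, the sterol hydroxylase, rose from 14.2 to 19.98 CPM (0.49), and 1 was not called. Cyp27a1 lost its call without knockdown replicate 2, and 2 of the 3 rose without control replicate 2. Ch25h, the cholesterol 25-hydroxylase, was below the filter.

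In the list of cholesterol uptake, trafficking and acceptors, 5 of 15 tested genes fell and 1 rose. The share called was 40%, below that of all tested genes, and the median log2 fold change was -0.03. With library size alone and with FPKM 5 fell and 3 rose, and with TPM 4 fell and 3 rose. Lrp1, an endocytic receptor for lipoproteins with apolipoprotein E, fell from 1025 to 469 CPM (-1.13), Lipa, the lysosomal acid lipase, from 585 to 343 CPM (-0.77) and Npc2, which lifts cholesterol out of the lysosome, from 566 to 394 CPM (-0.52). The scavenger receptor genes Scarb1 (-0.44) and Msr1 (-0.37) fell too. Gramd1b, a sterol transfer protein (0.42), rose. 3 rose without control replicate 1, and 2 when control replicate 2 or knockdown replicate 1 was left out. Over the distinct genes of all 11 pathway lists, 39 of 110 tested genes fell (35.5%) and 17 rose (15.5%), with a median log2 fold change of -0.03. The count that rose was 11 without knockdown replicate 2, and the count that fell was 25 without knockdown replicate 1. The split turned with the scaling: 31 rose and 23 fell with TPM, a scale on which the median of all genes moves from 0.01 to 0.14. None of the 56 calls changed sign.

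Levels can be compared between genes only per length. In the controls the order of mean TPM was Lpl (557), Plin2 (291), Nr1h2 (75.1), Lpcat3 (45.3), Srebf1 (43.3), Abca1 (15.9), Nr1h3 (15.4), Abcg1 (14.1), Mylip (5.22) and Apoe (4.89). The libraries overlapped between Lpcat3 and Srebf1, between Abca1, Nr1h3 and Abcg1 in turn, and between Mylip and Apoe, so these neighbours did not differ beyond their spread. In the knockdown libraries no neighbours overlapped and the order had changed at both ends. Plin2 (199) stood above Lpl (166), and Abca1 (6.89) stood last, below Apoe (9.44) and Mylip (8.66). The TPM of Lpl was 1.88 and 1.95 times that of Plin2 in the controls, and after knockdown 0.967 and 0.712 times.

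Since the knocked-down gene encodes an m6A methyltransferase subunit, its most common target letters were counted in the transcripts. GGACT was searched on the sense strand of the longest protein-coding GENCODE M21 transcript of each gene, and the sites were not measured for methylation. Each of the 10 transcripts held at least 1, from 1 site in Apoe, Nr1h3 and Plin2 to 7 in Abca1. Among 10851 tested genes with a transcript, 92.6% held at least 1, and the median density was 1.05 per kilobase. Lpl had 0.729, Abca1 0.682 and Plin2 0.530 sites per kilobase, Apoe 0.710 and Mylip 0.979. 9 of the 10 genes were below the median, and Nr1h2 (1.501) was above it. These 9 included genes that rose, that fell and that were not called.

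**Figure D4:**
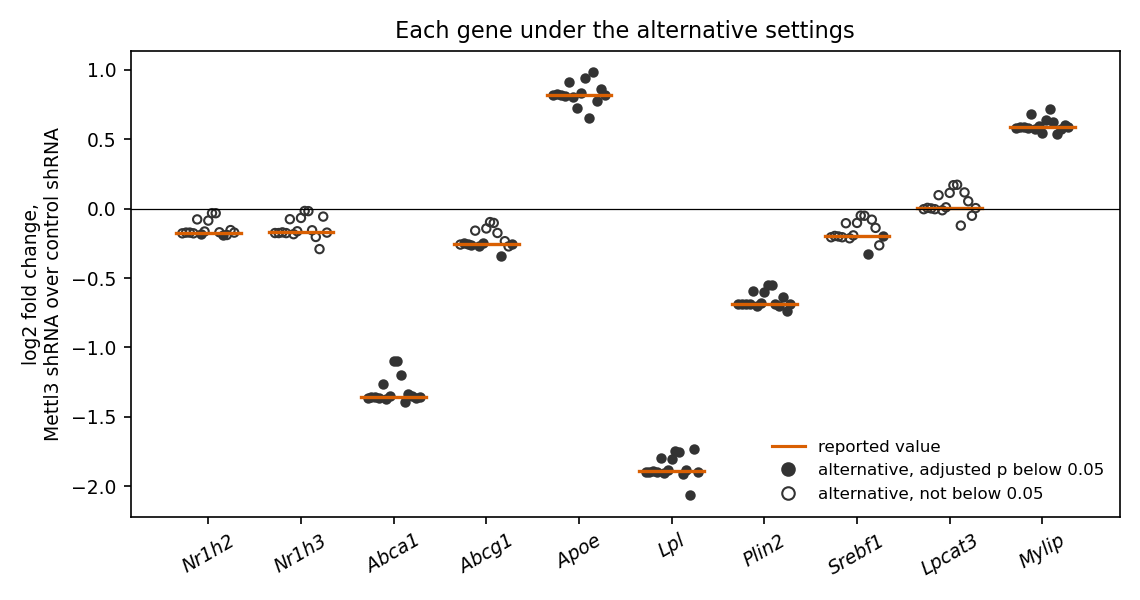
Log2 fold change of each gene in the reported fit (orange line) and in each alternative analysis (dots, filled where the adjusted p was below 0.05). Abca1, Lpl, Plin2, Apoe and Mylip are filled throughout. Abcg1 has open dots in 8 of 15 alternatives, and Lpcat3 lies on both sides of 0.

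The calls of Abca1, Lpl, Plin2 and Mylip were kept in all 15 alternative analyses, and that of Apoe in all 14 that tested it, since its mean is below 5 CPM. Their log2 fold changes lay between -1.39 and -1.09 for Abca1, between -2.07 and -1.74 for Lpl, between -0.74 and -0.55 for Plin2, between 0.53 and 0.72 for Mylip and between 0.66 and 0.99 for Apoe.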

How the data were processed

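Titles gave the groups. Poly(A)-primed, template-switched and PCR-amplified cDNA was sequenced as single reads, per the labels' protocols, which name no molecular identifiers. Libraries of this kind do not mark strand. The submitters' processing notes list mm9, RSEM 1.2.12, HISAT2 2.0.4 and Bowtie2 2.2.5, and the annotation is not given in the sources used here. As data, the authors deposited estimated counts (not whole for 12.5% of genes), FPKM scaled to length and library size, and TPM. Counts were rounded and tested with edgeR 4.0.16 in R 4.3.3 (robust quasi-likelihood, TMM factors of 0.966 to 1.04, filterByExpr with a minimum count of 10 and a minimum total of 15), which left 11035 of 14435 genes and 2 residual degrees of freedom. Benjamini-Hochberg adjustment ran over all tested genes. CPM are TMM-scaled, and fold changes are relative to that scale. Standard errors are the log2 fold change over the root of F. Intervals are 95%. Both reflect counting and the spread of the 2 libraries a group.

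Alternatives used DESeq2 1.42.0, limma 3.58.1 (voom, and log2 of FPKM + 1, TPM + 1 or TPM + 0.1), other scalings and filters, the replicate number as a block, and each library left out. Promoter sequences are RefSeq's on GRCm38.p6 and transcripts GENCODE M21's, both later than mm9. The fit was tested on simulated data of 10963 genes. It called 70% of 100 genes with a true absolute log2 fold change of 0.5, and 93% of 100 with 1. There were 12 false calls. Replicates were compared first: chi-square per degree of freedom was 11.5 between controls, 4.15 between knockdown libraries and 61.1 to 79.8 across groups. Within a list up to 3 rises and 3 falls are named, among called genes with groups that do not overlap and a higher group with a mean of at least 5 CPM, and others where a count is small. Some genes of the lists are counted but not reported here by name. The genes and lists were chosen with earlier results of these data known.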

Additional observations from a re-analysis of the deposited data

How the results depend on the processing

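With 2 libraries a group, a fit without 1 library takes its spread from the other group. Such fits called 3095 (without knockdown replicate 1) to 5324 genes over the whole table, against 4826. Over all pathway lists they gave 11 to 23 rises and 25 to 42 falls, against 17 and 39. Of the 56 calls in these lists, 32 were kept with each library left out. The number of the 10 genes that rose was 2 throughout, except 1 with a mean of at least 5 CPM, where Apoe was not tested, and 3 to 5 fell. Their median log2 fold change was -0.091 with library size alone, -0.094 with FPKM, -0.041 with TPM and -0.042 with TPM at the smaller pseudocount. The median of all tested genes moved upward too, from 0.014 in the reported fit. It was 0.109 with library size alone, 0.085 with FPKM, 0.139 with TPM and 0.155 at the smaller pseudocount. With 1 library left out the median of the 10 genes lay between -0.21 and -0.17. The pathway lists had 30 rises with library size alone, and 31 rises and 23 falls with TPM at either pseudocount.

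Among the 10 genes, Mettl3 and Mettl4, the sign changed for Lpcat3 and Mettl4, neither of which was called. Lpcat3 was at -0.0039 with DESeq2, -0.0038 with RLE factors, -0.012 with no filter, -0.12 without control replicate 1 and -0.051 without knockdown replicate 2, and with 1 library left out it lay between -0.12 and 0.12. Mettl4 was at 0.051 with library size alone, 0.14 with FPKM, 0.20 with TPM and 0.22 at the smaller pseudocount, and 0.0036 without control replicate 1, and with 1 library left out it lay between -0.11 and 0.0036. The cause was not tested.

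Replicate numbers are shared between groups, but no label says that they pair libraries. The deviations of same-numbered libraries correlated at 0.146 across genes, with 2 pairs. With a replicate block 5116 genes were called, 5 of the 10 genes fell and 2 rose, and Srebf1 was called (-0.20, adjusted p = 0.0339 by edgeR).

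Depth limits Apoe most, which rests on 52 to 108 counts a library, where counting alone gives an SD of 11.0%.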
